A study of Mus musculus with 12 samples.

Results

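Cadherins are calcium-dependent adhesion proteins of the cell surface, and protocadherins are their largest subfamily. Classical cadherins bind their like on the neighbouring cell and hold the actin skeleton through catenins. Type I members such as N-cadherin build adherens junctions, while type II members are worn in different combinations by different neuron classes. Nonclustered protocadherins of the delta groups guide axons and synapses and engage cytoplasmic partners such as the WAVE actin regulator. The clustered protocadherins are expressed from a tandem array in which each neuron picks a few promoters, a choice that gives it a surface identity. The genes described here were chosen by symbol: every protein-coding gene of the count files named Cdh or Pcdh with a number, together with those of the alpha, beta and gamma protocadherin clusters, by the GENCODE M21 annotation. They were 92 genes of the 51912 in the files, of which 21870 are protein-coding: 23 cadherins (5 type I, 13 type II and 5 others), 12 nonclustered protocadherins (4 delta-1, 5 delta-2 and 3 others) and 57 clustered protocadherins (14 alpha, 22 beta and 21 gamma).

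Their RNA was counted in 12 libraries of mouse cortex at postnatal day 0, made from total RNA depleted of ribosomal RNA by ClickSeq, in which cDNA ends are joined to adapters by click chemistry. In 4 libraries, called dKO-E, the 2 genes of the histone variant H3.3, H3f3a and H3f3b, were conditionally deleted with Emx1-Cre, which acts in cortical progenitors and so in the excitatory neurons and glia they give rise to. In 4 libraries, called dKO-N, the same 2 genes were deleted with Neurod6-Cre, which acts in excitatory neurons after their last division. The remaining 4 libraries are labelled control, with no further genotype. Cells outside each Cre lineage, such as interneurons, vessels and microglia, keep their H3.3 genes in both deletions and are part of every sample. Since these are bulk samples, fewer cells of a type and less RNA per cell cannot be told apart.

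The libraries held 722080 to 3502017 counts in genes, at which 3 counts equal 0.857 to 4.15 counts-per-million (CPM). The library labelled control 1 and the library labelled control 3 had 17.7 and 16.4 CPM of H3f3a. The dKO-E libraries had 30.04, 28.4, 25.8 and 22.9 CPM of it, the dKO-N libraries 36.7, 30.8, 22.1 and 37.8 CPM, and the libraries labelled control 2 and control 4 had 117 and 121 CPM. H3f3a therefore went against the label in 2 of the 4 control libraries, and the counts of family genes, and each gene whose call changes, are given with and without those 2 libraries. H3f3b was not lower in the deletions, with 167 to 180 CPM in dKO-E and 111 to 146 CPM in dKO-N. Control 1 and control 3 had 121 and 143 CPM of it, within the dKO-N range. Control 2 and control 4 had 76.7 and 84.2 CPM, below every deletion library. Which part of either gene is deleted is not given in the sources used here. Markers of excitatory neurons fixed as a list (7 genes, of which Tubb3 was listed at 0 in all libraries) summed to 1097 to 1486 CPM in dKO-E, 1558 to 2252 CPM in dKO-N and 2442 to 2830 CPM in control. Of the 6 that could be tested, 1 rose and 3 fell in dKO-E, and 1 rose and 2 fell in dKO-N. The list holds Neurod6, the gene after which the dKO-N driver is named, and its part in the sums was not tested. Markers of radial glia (7 genes, with Sox2 listed at 0) summed to 294 to 361 CPM in dKO-E, 315 to 375 CPM in dKO-N and 229 to 271 CPM in control, with 1 of 4 tested genes higher in dKO-E and 3 of 4 higher in dKO-N. The lists of striatum, intermediate progenitors, Cajal-Retzius cells, mural cells and microglia hold 4 or 5 genes each, none at 0 in all libraries. Striatal markers summed to 289 to 319 CPM in dKO-E, 266 to 487 CPM in dKO-N and 501 to 547 CPM in control. Of 4 tested striatal genes, 2 fell in dKO-E and 1 in dKO-N. Intermediate progenitor markers summed to 44.2 to 56.7 CPM in dKO-E, 65.8 to 80.2 CPM in dKO-N and 24.6 to 42.4 CPM in control, with 1 of 3 tested genes higher in each deletion. In dKO-E, neither Cajal-Retzius markers (222 to 330 CPM, against 385 to 453 CPM in control, 1 of 3 lower), mural markers (30.5 to 37.2 CPM, against 41.3 to 48.8 CPM in control, 1 of 3 lower) nor microglial markers (16.8 to 22.9 CPM, against 9.18 to 13.4 CPM in control, 1 of 2 higher) overlapped control. The part of these cell types in the differences reported here was not tested. The deepest library, dKO-N 4, carried the highest excitatory sum of its group, dKO-E 1 carried the lowest excitatory sum of all and a meningeal marker sum of 63.4 CPM (4.08 to 21.9 CPM in the other 11 libraries), and only dKO-E 3 and dKO-E 4 held more than 3 counts of 4 Y-linked genes.

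The clustered protocadherins could hardly be read from these counts. Of the 57, 56 were listed at 0 in all 12 libraries, and the same 56 have no base of their own: in GENCODE M21 every base of their gene body, from first to last exon with introns, also lies in another gene on the same strand. The same held for 1 cadherin, Cdh15. That pattern ran through the whole files. Of 6092 genes with no body base of their own on their strand, 31 (0.509%) had a count in any library, although 5501 of them have exonic bases that no other gene on that strand uses. Of 5842 genes that are covered fully only when the opposite strand is included, 37.9% had a count, and of 39785 genes with bases of their own on either strand, 55.7% did. The counts thus behaved as if whole gene bodies had been counted, introns included, by strand, with shared reads left out, and the 0 of these 57 genes is not a measurement of their expression. In the cluster's stretch of chromosome 18, 1 of 70 genes on the plus strand had counts and 14 of 15 on the minus strand did, among them Taf7, a general transcription factor subunit, with 176 counts.

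Pcdha1, whose gene runs across the alpha array, was the exception. It holds 9.02 kb of its own out of 257.5 kb and had 0, 1, 1 and 0 counts in dKO-E, 2, 1, 1 and 3 counts in dKO-N and 6, 3, 4 and 2 counts in control. Each dKO-E library held at most 1 count and each control library at least 2, and all 12 libraries together held 24 counts. Without a filter on low counts its log2 fold change in dKO-E against control was -2.52 and missed the threshold of 0.05 (adjusted p = 0.0819 by edgeR's quasi-likelihood test with Benjamini-Hochberg adjustment over all genes), so a difference was not detected. Of the other genes with bases of their own, 8 stayed under the filter: Cdh1, Cdh3, Cdh16, Cdh17, Cdh19, Cdh26, Pcdh12 and Pcdh20. Pcdh20, a nonclustered protocadherin, was the highest of these, with 2.61, 2.43, 3.91 and 4.47 CPM in dKO-E, 1.36, 1.87, 2.76 and 1.502 CPM in dKO-N and 5.65, 4.79, 4.75 and 5.68 CPM in control. Neither deletion's libraries overlapped the control libraries, but the deletion libraries held 1 to 10 counts each, and without a filter neither comparison passed (adjusted p = 0.446 in dKO-E and 0.0691 in dKO-N).

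**Figure D1:**
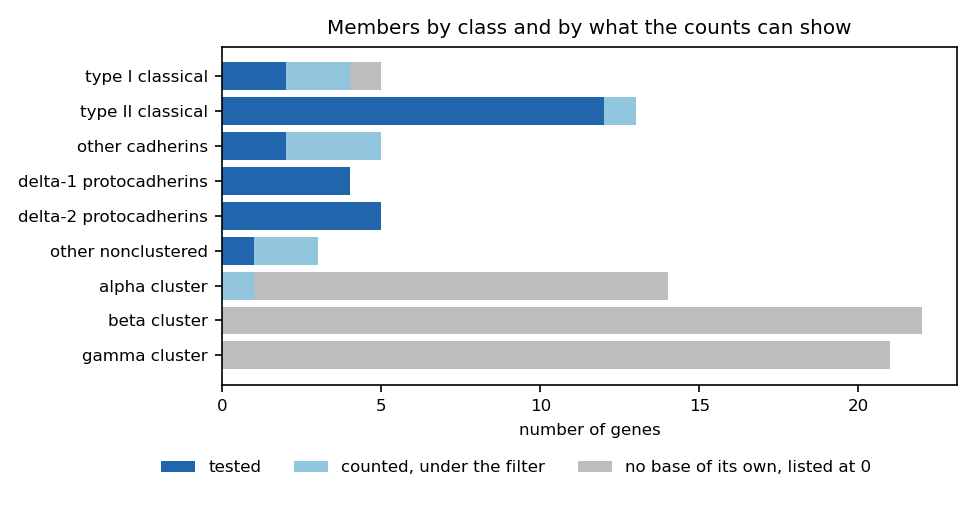
Number of genes in each class of the cadherin and protocadherin family, split into those tested (26), those with counts but under the filter on low counts (9) and those without a base of their own, listed at 0 in every library (57). The 3 protocadherin clusters are almost wholly of the last kind.

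The remaining 26 genes passed the filter and carry all results that follow, where a gene is said to have changed, risen, fallen or passed if its adjusted p was under 0.05. They were 2 type I, 12 type II and 2 other cadherins, all 4 delta-1 and all 5 delta-2 protocadherins, and Pcdh15. The family took 1.15% of the counts in genes, and Pcdh9 alone held 36.4% of that share. The 57 of its 92 genes without a base of their own could add nothing to it, so these shares describe the genes that could be counted.

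Type II cadherins made up most of the genes that fell in either deletion, and R-cadherin (Cdh4) and T-cadherin (Cdh13) rose in both. In dKO-E against control, 14 of the 26 genes changed, 4 higher and 10 lower. This was 53.8%, where 20.2% of all 11076 genes tested passed, 10.1% higher and 10.1% lower. In dKO-N against control, 13 changed, 4 higher and 9 lower, or 50%, where 11.3% of all genes passed, 5.04% higher and 6.29% lower. The 2 comparisons share the control libraries, and 11 genes passed in both. The median absolute log2 fold change was 0.59 in dKO-E and 0.58 in dKO-N, where all genes tested had 0.24 in dKO-E and 0.20 in dKO-N. The 4 dKO-E libraries did not overlap the 4 control libraries for 14 of the 26 genes (25.5% of all genes), and the dKO-N libraries did not for 12 (13% of all genes).

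The family differs from the average gene in ways that bear on such a count. Its tested genes were 176.5 kb long in the median, where all genes tested were 32.2 kb, and had a median average log2 CPM of 6.79, where all had 4.92. Among the 2191 tested genes of 100 kb or more, 40.2% passed in dKO-E and 28.2% in dKO-N, and of the 19 family genes of that length 63.2% passed in dKO-E and 57.9% in dKO-N. Among the 3191 genes with an average log2 CPM of 6 or more, 31.8% passed in dKO-E and 19.6% in dKO-N, and of the 17 such family genes 76.5% passed in dKO-E and 64.7% in dKO-N. Without control 1 and control 3, 15 family genes passed in dKO-E, including all 14 above, where 1215 of all 11580 genes tested passed. In that fit 10 family genes passed in dKO-N, all among the 13, where 756 of all 11580 did. Leaving out control 1 and control 3 moved the log2 fold change of a gene that passed with all libraries by at most 0.14 in dKO-E and 0.24 in dKO-N. The calls lost were those of Cdh12, Cdh18 and Pcdh10 in dKO-N.

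**Figure D2:**
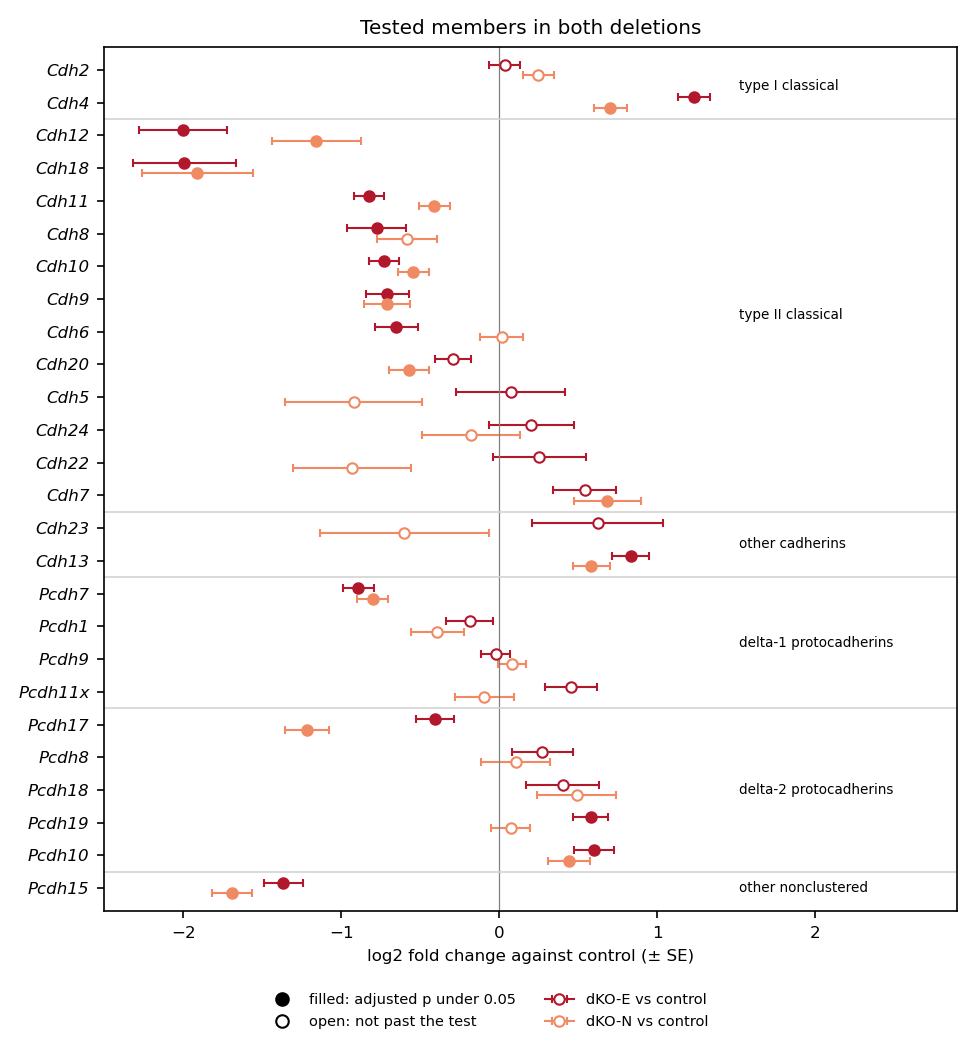
Log2 fold change against control (± SE, n = 4 libraries a group) of the 26 tested genes, by class, for dKO-E (dark red) and dKO-N (orange); filled points passed an adjusted p of 0.05. Type II cadherins lie mostly left of 0 in both deletions, with Cdh12 and Cdh18 at or near -2 in dKO-E, and Cdh4 and Cdh13 lie to the right.

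For genes that fell and genes that rose in dKO-E, the bases in front of the RefSeq start are shown so that their promoters can be compared. They are the 3 genes that fell most in dKO-E, Cdh12 (chr15:21111202-21111451, + strand), Cdh18 (chr15:23036213-23036462, + strand) and Pcdh15 (chr10:73821617-73821866, + strand), and the 2 that rose there and have an entry, Pcdh10 (chr3:45378148-45378397, + strand) and Pcdh19 (chrX:133688994-133689243, - strand). The 2 genes that rose most in dKO-E, Cdh4 and Cdh13, have no entry. Each sequence is the 250 bases upstream of the start in RefSeq's GRCm38.p6 (mm10) table, written 5′ to 3′ on the gene's strand, with every CG dinucleotide in capitals. The RefSeq starts of Cdh12, Cdh18 and Pcdh15 lie 662 kb, 487 kb and 723 kb inside the longer gene bodies of GENCODE M21, those of Pcdh10 and Pcdh19 at the edge of the gene.
Cdh12: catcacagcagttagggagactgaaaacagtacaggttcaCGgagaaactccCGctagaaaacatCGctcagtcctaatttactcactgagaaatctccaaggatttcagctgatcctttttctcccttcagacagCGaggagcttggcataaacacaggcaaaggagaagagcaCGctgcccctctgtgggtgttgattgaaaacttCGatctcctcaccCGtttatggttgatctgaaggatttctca
Cdh18: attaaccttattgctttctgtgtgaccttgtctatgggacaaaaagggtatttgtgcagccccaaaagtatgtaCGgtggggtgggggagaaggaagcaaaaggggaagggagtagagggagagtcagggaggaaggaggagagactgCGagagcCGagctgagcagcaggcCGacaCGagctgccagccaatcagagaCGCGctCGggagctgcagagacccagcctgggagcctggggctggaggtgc
Pcdh15: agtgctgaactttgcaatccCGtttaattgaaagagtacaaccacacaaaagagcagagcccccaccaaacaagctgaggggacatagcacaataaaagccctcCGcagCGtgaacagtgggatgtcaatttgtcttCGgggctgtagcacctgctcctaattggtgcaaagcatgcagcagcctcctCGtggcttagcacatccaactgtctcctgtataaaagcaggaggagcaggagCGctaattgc
Pcdh10: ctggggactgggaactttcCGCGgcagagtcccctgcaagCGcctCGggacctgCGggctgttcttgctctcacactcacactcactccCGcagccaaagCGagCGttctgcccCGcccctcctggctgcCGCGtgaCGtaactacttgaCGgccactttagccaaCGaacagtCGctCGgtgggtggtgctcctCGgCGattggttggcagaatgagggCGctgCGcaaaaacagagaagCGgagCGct
Pcdh19: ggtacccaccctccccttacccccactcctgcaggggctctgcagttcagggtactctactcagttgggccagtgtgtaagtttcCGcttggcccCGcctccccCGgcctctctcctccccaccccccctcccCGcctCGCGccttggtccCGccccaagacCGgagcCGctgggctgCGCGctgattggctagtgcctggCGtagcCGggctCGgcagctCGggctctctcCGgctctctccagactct

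In the 3 genes that fell most in dKO-E the window has 7 CG (Cdh12), 8 CG (Cdh18) and 6 CG (Pcdh15), close to the median of all promoters. In Pcdh10 and Pcdh19, which rose there, it has 22 CG (Pcdh10) and 16 CG (Pcdh19). A CG, which reads the same on both strands, is present in 91.7% of the 27025 promoters of the table, whose median is 6 and whose quartiles are 2 and 16. Of the genes changed in dKO-E, 9 that fell and 2 that rose have an entry. The 9 that fell ran from 2 CG in Cdh10 to 21 in Pcdh17, with a median of 7, and 2 of them, Cdh8 with 20 and Pcdh17, exceeded the upper quartile. With 2 promoters on the higher side this is a description of the sequences only. The entry table matched 22 of the family's genes, 19 of them tested. The windows of those 19 had a median of 11 CG, from 2 to 30. Cdh22 with 30 CG and Pcdh18 with 23 CG, which did not change in dKO-E, exceeded both genes that rose.

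N-cadherin (Cdh2), the main classical cadherin of cortical progenitors and neurons, was the highest of the tested genes per length in control and did not pass in any comparison. It had 1097, 1318, 1336 and 1356 CPM in dKO-E, 1294, 1372, 1487 and 1758 CPM in dKO-N and 1338, 1224, 1287 and 1136 CPM in control, and the 3 groups overlap. Its log2 fold change was 0.04 ± 0.10 (SE, adjusted p = 0.841) in dKO-E and 0.25 ± 0.10 (adjusted p = 0.0986) in dKO-N. R-cadherin (Cdh4, chr2:179442431-179899373 in mm10, plus strand), the other tested type I gene, rose in both. It had 934, 1119.5, 1342 and 1291 CPM in dKO-E, 905, 709, 839 and 807 CPM in dKO-N and 479.9, 527, 455 and 535 CPM in control. Every dKO-E library lay above every dKO-N library, and every dKO-N library above every control library. The log2 fold change against control was 1.23 ± 0.10 in dKO-E (adjusted p = 7.68e-12) and 0.71 ± 0.10 in dKO-N (adjusted p = 3.25e-06). Between the deletions it was 0.53 ± 0.10 (adjusted p = 0.00126), which was 0.34 (adjusted p = 0.15) without dKO-E 3 and dKO-E 4, the libraries with Y-linked counts.

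Of the 12 type II cadherins tested, 7 fell in dKO-E (Cdh6, Cdh8, Cdh9, Cdh10, Cdh11, Cdh12 and Cdh18), while 1 rose and 6 fell in dKO-N (Cdh7 rose; Cdh9, Cdh10, Cdh11, Cdh12, Cdh18 and Cdh20 fell). Among all genes tested, 10.1% fell in dKO-E, and 5.04% rose and 6.29% fell in dKO-N. The median log2 fold change of the type II genes was -0.68 in dKO-E and -0.58 in dKO-N. Over all genes tested it was 0.0068 in dKO-E and 0.014 in dKO-N. Cdh12 (chr15:20449265-21589533, plus strand), a neuronal type II cadherin, and Cdh18 fell most in dKO-E, by nearly the same amount, while in dKO-N Cdh18, Pcdh15 and Pcdh17 fell more than Cdh12. Cdh12 had 52.3, 43.8, 92.6 and 69.4 CPM in dKO-E, 169, 149, 92.4 and 79.6 CPM in dKO-N and 276, 259, 294 and 211 CPM in control. Both deletions lay wholly below control, and dKO-N spread most within its group. Cdh12 fell by 2.00 on the log2 scale in dKO-E (SE 0.28, adjusted p = 0.000627) and by 1.16 in dKO-N (SE 0.28, adjusted p = 0.0262). The dKO-N call was lost without control 1 and control 3 (log2 fold change -1.01, adjusted p = 0.189) and in 5 of 12 fits that left out 1 library, with adjusted p from 0.0571 to 0.079.

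Cdh18 (chr15:22549022-23474418, plus strand), the neighbour of Cdh12 and likewise neuronal, had 99.3, 32.4, 31.3 and 64.9 CPM in dKO-E, 62.6, 74.6, 62.03 and 42.96 CPM in dKO-N and 215, 182, 242 and 219.6 CPM in control. All 8 deletion libraries lay far below the 4 control libraries. Its log2 fold change was -1.99 ± 0.33 in dKO-E (adjusted p = 0.00195) and -1.91 ± 0.35 in dKO-N (adjusted p = 0.00642). Without control 1 and control 3 it was -1.89 in dKO-E (adjusted p = 0.0304) and -1.81 in dKO-N (adjusted p = 0.0653). Without dKO-E 1 it was -2.37 in dKO-E, where Cdh12 had -1.92.

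Cdh6, Cdh9 and Cdh10 are close relatives whose proteins bind each other as well as their like, and Cdh9 is known from hippocampal synapses. Cdh10 (chr15:18818947-19014236, plus strand) had 217, 268, 261 and 287 CPM in dKO-E, 278, 289, 338 and 279 CPM in dKO-N and 475, 433, 419 and 387 CPM in control. Neither deletion overlapped control, with log2 fold changes of -0.73 ± 0.09 in dKO-E (adjusted p = 1.97e-07) and -0.54 ± 0.10 in dKO-N (adjusted p = 9.52e-05). Cdh9 (chr15:16728756-16857094, plus strand) was also lower in both. It had 45.1, 47.8, 35.95 and 54.3 CPM in dKO-E, 40.8, 59.7, 48.2 and 38.1 CPM in dKO-N and 71.3, 73.5, 82.5 and 69.2 CPM in control, again without overlap against control. It fell by 0.71 on the log2 scale in dKO-E (SE 0.13, adjusted p = 0.000143) and by 0.71 in dKO-N (SE 0.15, adjusted p = 0.000689).

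Cdh6 (chr15:13028701-13173675, minus strand) separated the deletions. It had 40.5, 61.99, 63.7 and 60.96 CPM in dKO-E, 63.9, 78.3, 110.3 and 105 CPM in dKO-N and 95.4, 97.98, 87.2 and 81.1 CPM in control. All dKO-E libraries lay below all others, and the dKO-N libraries lay on both sides of the control libraries. The log2 fold change was -0.65 ± 0.14 in dKO-E against control (adjusted p = 0.00052), 0.02 ± 0.14 in dKO-N against control (adjusted p = 0.965) and -0.67 ± 0.14 in dKO-E against dKO-N (adjusted p = 0.00407). Without dKO-N 4 the difference between the deletions was -0.53 (adjusted p = 0.0557).

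Cdh6, Cdh9, Cdh10, Cdh12 and Cdh18 are the type II genes of chromosome 15 and lie within 10.4 Mb of it (chr15:13028701-23474418). That stretch held 6 tested genes, these 5 and the noncoding C030047K22Rik, which lies directly before Cdh10. All 6 fell in dKO-E, where 10.1% of all genes tested fell, the noncoding gene by 0.80 on the log2 scale (adjusted p = 0.0489). In dKO-N, 4 of the 6 passed (11.3% of all genes), and in dKO-E against dKO-N 1 did, Cdh6 (6.84% of all genes). The 5 cadherins are already counted among the type II genes above, so only C030047K22Rik, close to the threshold, is added here.

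Cdh8 and Cdh11 lie on chromosome 8 and are expressed by subsets of cortical neurons. Cdh11 (chr8:102632095-102785642, minus strand) had 197, 193, 197 and 183 CPM in dKO-E, 265, 232, 215 and 300.1 CPM in dKO-N and 371, 355, 299 and 338 CPM in control. The dKO-E libraries were tightly grouped below all others, while 1 dKO-N library reached into the control range. Cdh11 fell by 0.82 on the log2 scale in dKO-E (SE 0.10, adjusted p = 2.4e-08) and by 0.41 in dKO-N (SE 0.10, adjusted p = 0.00358). The difference between the deletions was -0.42 ± 0.10 (adjusted p = 0.00942), or -0.30 (adjusted p = 0.082) without dKO-N 4 and -0.39 (adjusted p = 0.131) without dKO-E 3 and dKO-E 4.

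Cdh8 (chr8:99024471-99416471, minus strand) had 298, 257, 223 and 251 CPM in dKO-E, 233, 256, 219 and 424 CPM in dKO-N and 504, 428, 371 and 453 CPM in control. It was lower than control in every dKO-E library and in 3 dKO-N libraries, while dKO-N 4 lay among the controls. Cdh8 changed by -0.78 ± 0.19 on the log2 scale in dKO-E (adjusted p = 0.0127), or by -0.67 without dKO-E 3 and dKO-E 4, where the call was lost (adjusted p = 0.126). Without control 1 and control 3 it was -0.78 and close to the threshold (adjusted p = 0.0493). The dKO-N value, -0.58 ± 0.19, did not pass (adjusted p = 0.0805). Without dKO-N 4, the library with the highest excitatory marker sum of its group, it was -0.89 (adjusted p = 8.91e-09), and it also passed by DESeq2 (-0.62, adjusted p = 0.0419) and with no filter on low counts (-0.62, adjusted p = 5.34e-06).

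Cdh20 and Cdh7 both lie on chromosome 1, within 5.37 Mb. Cdh20 (chr1:104768529-104995481, plus strand) had 65.97, 63.6, 64.9 and 55.9 CPM in dKO-E, 65.3, 45.7, 48.2 and 50.8 CPM in dKO-N and 78.4, 77.7, 73.4 and 77.5 CPM in control. Both deletions lay below control in every library, but the log2 fold change passed only in dKO-N (-0.57 ± 0.13, adjusted p = 0.00151) and was -0.29 ± 0.11 in dKO-E (adjusted p = 0.0632). The difference between the deletions did not pass (adjusted p = 0.198). Cdh7 (chr1:109982431-110140157, plus strand) had 30.7, 20.3, 19.5 and 30.2 CPM in dKO-E, 21.8, 26.1, 22.1 and 31.8 CPM in dKO-N and 18.4, 12.2, 19.9 and 16.02 CPM in control. The dKO-N libraries lay above all control libraries, and 1 control library, control 3, reached into the dKO-E range. Cdh7 had a log2 fold change of 0.54 ± 0.20 in dKO-E, on the edge of the threshold (adjusted p = 0.0507), and rose in dKO-N (0.68 ± 0.21, adjusted p = 0.0281). The dKO-N call was lost in 3 of 12 fits that left out 1 library, at 0.48 without dKO-N 4 (adjusted p = 0.276), 0.57 without control 2 (adjusted p = 0.115) and 0.65 without control 4 (adjusted p = 0.0749), and also by DESeq2 (0.67, adjusted p = 0.0699). The dKO-E value passed in 5 of those 12 fits, with adjusted p from 0.0319 to 0.0489.

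Cdh22, a type II cadherin of low level here, passed only between the deletions. It had 9.14, 9.32, 7.82 and 11.7 CPM in dKO-E, 1.36, 7.46, 2.76 and 3.91 CPM in dKO-N and 8.48, 7.46, 9.07 and 6.20 CPM in control, so that all dKO-E libraries exceeded all dKO-N libraries. The values of dKO-N 1 and dKO-N 3 rest on fewer than 3 counts each. The log2 fold change between dKO-E and dKO-N was 1.19 ± 0.37 (adjusted p = 0.0427), and the call was lost in 10 of 12 fits that left out 1 library, with adjusted p from 0.0516 to 0.192. It was also lost without control 1 and control 3 (1.19, adjusted p = 0.0622). The last 2 type II genes did not pass in any comparison. VE-cadherin (Cdh5), the junctional cadherin of endothelium, averaged 7.81 ± 3.99 CPM in dKO-E, 4.08 ± 1.05 CPM in dKO-N and 7.02 ± 1.75 CPM in control (SD, n = 4 each). Cdh24 averaged 13.3 ± 5.12 CPM in dKO-E, 10.4 ± 2.52 CPM in dKO-N and 11.7 ± 3.72 CPM in control. The list of 6 endothelial markers summed to 48.1 to 79.7 CPM in dKO-E, 42.2 to 76.9 CPM in dKO-N and 72.6 to 78.8 CPM in control.

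Of the cadherins outside both classical types, T-cadherin (Cdh13, chr8:118283733-119324921, plus strand), which is anchored to the membrane by a lipid and has no cytoplasmic tail, rose in both deletions. It had 1965, 2560.4, 2742 and 2483 CPM in dKO-E, 2269, 1471, 2437 and 2044 CPM in dKO-N and 1445, 1287, 1383 and 1355 CPM in control. Every deletion library exceeded every control library, with dKO-N 2 close to them. Cdh13 rose by 0.83 ± 0.12 on the log2 scale in dKO-E (adjusted p = 5.9e-06) and by 0.59 ± 0.12 in dKO-N (adjusted p = 0.000986), and the difference between the deletions, 0.25 ± 0.12, did not pass (adjusted p = 0.215). Cdh23, the partner of Pcdh15 in the tip links of hair cells, was close to the floor, at 9.14, 6.08, 5.08 and 4.47 CPM in dKO-E, 0, 6.53, 0 and 2.40 CPM in dKO-N and 3.88, 3.20, 4.32 and 4.13 CPM in control, and did not pass in any comparison.

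**Figure D3:**
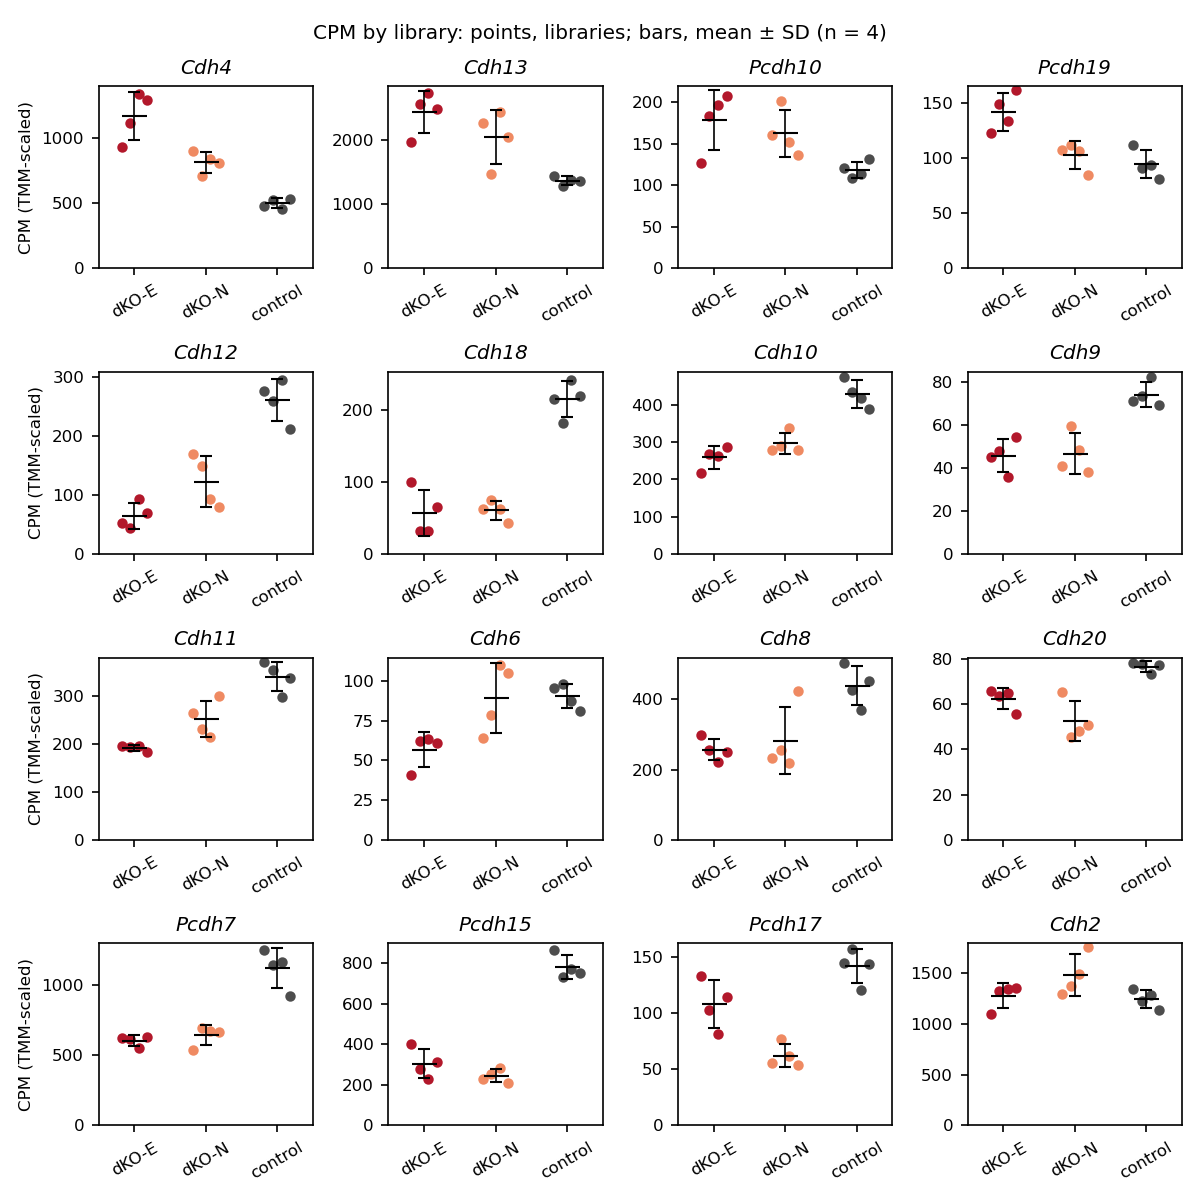
CPM (scaled by TMM) of 16 genes in each of the 12 libraries, in the order dKO-E, dKO-N, control; points are libraries and bars the mean ± SD (n = 4). Cdh4 and Cdh13 lie higher in both deletions, Cdh12, Cdh18, Cdh10, Cdh9, Pcdh7 and Pcdh15 lie lower in both without overlap against control, and Cdh2 overlaps.

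The delta-1 protocadherins carry a tail that binds protein phosphatase 1 in addition to the motifs they share with the delta-2 group. Pcdh9, which held the largest share of the family's counts, did not pass in any comparison. It had 3618, 4425, 4071 and 4205 CPM in dKO-E, 3896, 4560.0, 4377 and 4691 CPM in dKO-N and 4558, 3971, 4096 and 3947 CPM in control, with a log2 fold change of -0.02 ± 0.09 in dKO-E (adjusted p = 0.899) and 0.08 ± 0.09 in dKO-N (adjusted p = 0.66). Pcdh7 (chr5:57717967-58133230, plus strand) was the 1 delta-1 gene of 4 that changed, where 20.2% of all genes passed in dKO-E and 11.3% in dKO-N. It had 623, 611, 549 and 629.8 CPM in dKO-E, 537, 691, 673 and 664 CPM in dKO-N and 1249.8, 1142, 1164 and 918 CPM in control. The deletions lay close together and wholly below control, with log2 fold changes of -0.89 ± 0.10 in dKO-E (adjusted p = 4.92e-09) and -0.80 ± 0.10 in dKO-N (adjusted p = 1.15e-07). The X-linked Pcdh11x had 121, 112, 78.2 and 114 CPM in dKO-E, 62.6, 81.1, 96.5 and 59.8 CPM in dKO-N and 73.8, 55.9, 99.3 and 76.98 CPM in control. Its groups overlap, and its log2 fold change of 0.45 ± 0.17 in dKO-E did not pass (adjusted p = 0.061), although it passed without control 1 and control 3 (0.66, adjusted p = 0.0202), as did its difference between the deletions (0.55, adjusted p = 0.0432). The remaining delta-1 gene, Pcdh1, averaged 36.1 ± 2.65 CPM in dKO-E, 33.9 ± 7.63 CPM in dKO-N and 40.97 ± 1.78 CPM in control and did not pass.

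The delta-2 protocadherins did not move in 1 direction. Of 5 tested, 2 rose and 1 fell in dKO-E, and 1 rose and 1 fell in dKO-N. Among all genes tested, 20.2% passed in dKO-E and 11.3% in dKO-N. Pcdh10 (chr3:45378398-45435623, plus strand), an axon guidance protocadherin that recruits the WAVE complex, had 127, 184, 196 and 207 CPM in dKO-E, 161, 201, 152 and 136 CPM in dKO-N and 120.1, 108, 113 and 131 CPM in control. All dKO-N libraries and 3 of 4 dKO-E libraries exceeded every control library. It rose by 0.60 ± 0.12 on the log2 scale in dKO-E (adjusted p = 0.000756) and by 0.44 ± 0.13 in dKO-N (adjusted p = 0.0277). The dKO-E call was lost without dKO-E 3 and dKO-E 4 (0.40, adjusted p = 0.0721). The dKO-N call was lost without control 1 and control 3 (0.42, adjusted p = 0.205) and in 6 of 12 fits that left out 1 library, with adjusted p from 0.0516 to 0.132.

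Pcdh19 (chrX:133582860-133688987, minus strand), the X-linked gene mutated in an epilepsy of girls, rose in dKO-E alone among the comparisons with control. It had 123, 149, 133 and 161 CPM in dKO-E, 107, 112, 106 and 84.1 CPM in dKO-N and 111, 91.1, 93.3 and 81.1 CPM in control. The dKO-E libraries lay above all others, and the dKO-N and control libraries overlap. It rose by 0.58 ± 0.11 on the log2 scale in dKO-E (adjusted p = 0.000154), and the dKO-N value of 0.07 ± 0.12 did not pass (adjusted p = 0.796). Between the deletions it differed by 0.51 ± 0.12 (adjusted p = 0.00762). The difference between the deletions was 0.38 without dKO-N 4 (adjusted p = 0.0752) and 0.45 without dKO-E 3 and dKO-E 4 (adjusted p = 0.109).

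Pcdh17 (chr14:84443563-84539002, plus strand), which gathers WAVE at contacts between axons growing together, went the other way and fell more in dKO-N. It had 133, 103, 81.3 and 114 CPM in dKO-E, 55.8, 76.5, 62.03 and 53.5 CPM in dKO-N and 144, 157, 120.5 and 144 CPM in control. The dKO-N libraries lay below all others, and the dKO-E libraries lay between, with 1 inside the control range. Pcdh17 had a log2 fold change of -0.41 ± 0.12 in dKO-E (adjusted p = 0.0145) and -1.21 ± 0.14 in dKO-N (adjusted p = 5.45e-08), and between the deletions it was 0.81 ± 0.14 (adjusted p = 0.000592). The dKO-E call was lost when library totals replaced TMM scaling (-0.28, adjusted p = 0.122), and without dKO-E 3 (-0.29, adjusted p = 0.108), dKO-E 3 and dKO-E 4 (-0.28, adjusted p = 0.243) or control 2 (-0.36, adjusted p = 0.0584). The last 2 delta-2 genes, Pcdh8 and Pcdh18, averaged 13.3 to 28.3 CPM by group and did not pass in any comparison.

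Pcdh15 (chr10:73099342-74649737, plus strand), the tip link protocadherin of hair cells and, in the brain, a transcript of oligodendrocyte precursors, fell in both deletions. It had 402, 276, 231 and 311 CPM in dKO-E, 229.9, 254, 285 and 210.3 CPM in dKO-N and 865, 733, 773 and 753 CPM in control. The highest deletion library, dKO-E 1, held far less than the lowest control library. Its log2 fold change was -1.37 ± 0.12 in dKO-E (adjusted p = 3.9e-09) and -1.69 ± 0.13 in dKO-N (adjusted p = 3.75e-10), with 0.32 ± 0.13 between the deletions (adjusted p = 0.134). The 5 precursor markers fixed as a list, none at 0, summed to 37.5 to 47.7 CPM in dKO-E, 37.2 to 60.7 CPM in dKO-N and 56.2 to 71.3 CPM in control. Of the 4 that could be tested, 1 fell in dKO-E. The part of these cells in the fall of Pcdh15 was not tested.

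Compared with each other, dKO-E and dKO-N differed in 6 of the 26 genes, or 23.1%, where 6.84% of all genes tested passed (3.11% higher, 3.73% lower). The dKO-E libraries had more Cdh4, Pcdh17, Pcdh19 and Cdh22 and less Cdh6 and Cdh11. The groups did not overlap for 6 genes, where 10.2% of all genes did not. Among tested genes of 100 kb or more, 13.3% passed, and 26.3% of the family genes of that length did. Without dKO-N 4 the number of family genes was 2, Cdh4 and Pcdh17, where 300 of all 11317 genes tested passed. Without dKO-E 3 and dKO-E 4 the number was 3, where 199 of all 11682 passed. For the 2 genes that fell most in dKO-E against control, the difference between the deletions was not past the test, at -0.84 ± 0.31 for Cdh12 (adjusted p = 0.144) and -0.08 ± 0.40 for Cdh18 (adjusted p = 0.93). By DESeq2 the difference of Cdh12 passed (-0.92, adjusted p = 0.0415). The libraries of Cdh12 overlap in 1 place, where dKO-E 3 exceeded dKO-N 3 and dKO-N 4.

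**Figure D4:**
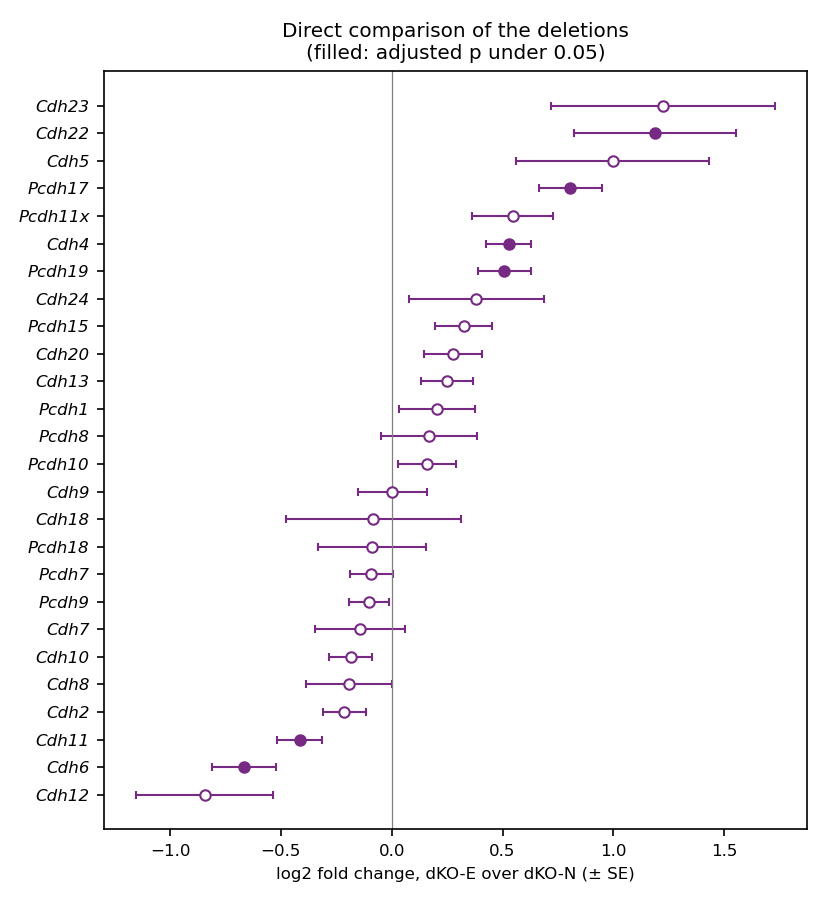
Log2 fold change of dKO-E over dKO-N (± SE, n = 4 libraries a group) for the 26 tested genes in order of size; filled points passed an adjusted p of 0.05. Positive values, as of Pcdh17 and Cdh4, are higher in dKO-E, and Cdh6 and Cdh11 are lower in dKO-E.

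Levels of different genes were compared per length, as CPM per kb of the gene's own body, since the counts behaved as if introns were included. Exons make up 6305 of the 1140269 bases of Cdh12 and all 4538 bases of Pcdh8. The part of such gene structure in the ranks on this scale was not tested. On this scale Cdh2 came first of the tested genes in dKO-N and control, with 5.79 in dKO-E, 6.71 in dKO-N and 5.65 in control. The short Pcdh8, named after its values were seen, came next, and first in dKO-E, with 6.24 in dKO-E, 6.03 in dKO-N and 5.15 in control, and Pcdh9 followed with 4.65 in dKO-E, 4.99 in dKO-N and 4.72 in control. Pcdh7 had 1.55 in dKO-E, 1.65 in dKO-N and 2.88 in control. The 2 genes that fell most in dKO-E are long and stood low on this scale, Cdh12 at 0.0566 in dKO-E, 0.107 in dKO-N and 0.228 in control, and Cdh18 at 0.0617 in dKO-E, 0.0656 in dKO-N and 0.232 in control. Cdh23 was lowest of the tested genes, at 0.0157 in dKO-E, 0.00567 in dKO-N and 0.00986 in control.

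**Figure D5:**
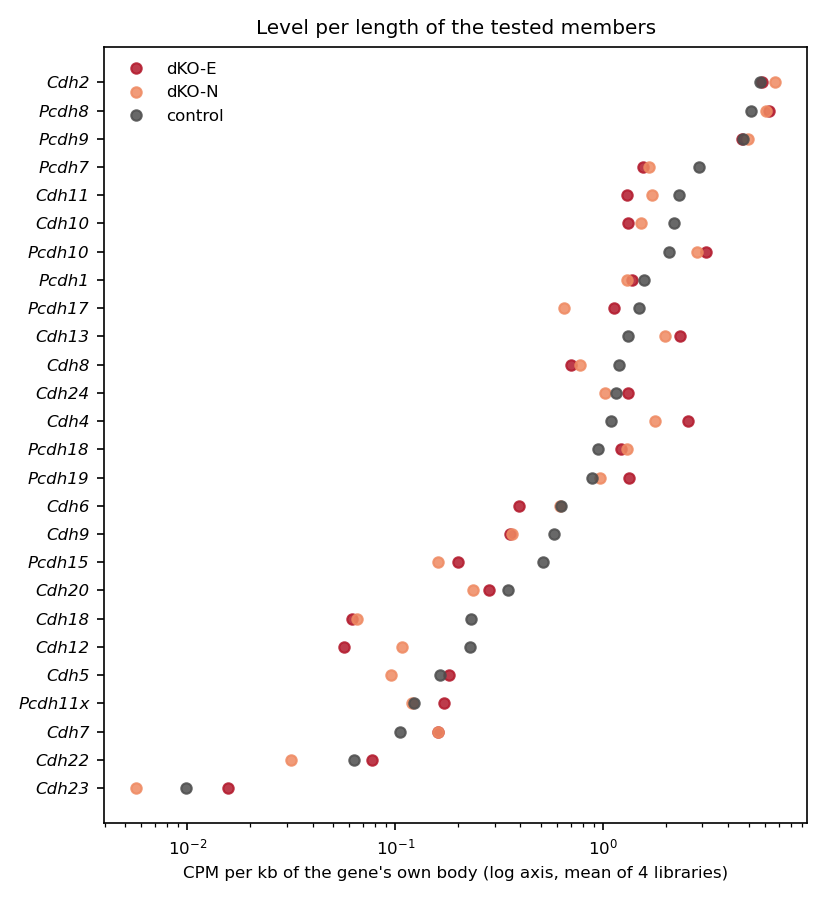
Level of the 26 tested genes in CPM per kb of own gene body (log axis), as the mean of 4 libraries in dKO-E (dark red), dKO-N (orange) and control (grey), in order of the control level. The points of a gene lie close together for Cdh2, Pcdh9 and Pcdh8 and apart for Cdh4, Cdh12, Cdh18 and Pcdh15.

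Cadherins act through cytoplasmic partners, which were taken as fixed lists. Of 16 catenins and cadherin partners, all tested, 3 rose and 1 fell in dKO-E, where 20.2% of all genes tested passed. In dKO-N, 2 rose and 1 fell, where 11.3% of all genes passed. In both comparisons with control a larger share of the list passed than of all genes, but this rests on few genes. The catenin that binds the cadherin tail, Ctnnb1, rose in dKO-E (0.29 ± 0.10, adjusted p = 0.029) and in dKO-N (0.33 ± 0.10, adjusted p = 0.0223), and Pkp4, a p120-catenin relative, fell in dKO-E (-0.32 ± 0.09, adjusted p = 0.00941) and in dKO-N (-0.42 ± 0.10, adjusted p = 0.00194). The alpha-catenins Ctnna3 (0.84 ± 0.19, adjusted p = 0.00107) and Ctnna1 (0.45 ± 0.15, adjusted p = 0.036) rose in dKO-E. Ctnnd2, the neuronal delta-catenin, rose in dKO-N (0.32 ± 0.10, adjusted p = 0.0225), and its direct difference, dKO-E over dKO-N, was -0.37 ± 0.10 (adjusted p = 0.016). The list's median absolute log2 fold change was 0.26 in both comparisons with control, where all genes tested had 0.24 in dKO-E and 0.20 in dKO-N.

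Of 14 subunits of the WAVE complex and protocadherin effectors, all tested, 1 rose and 5 fell in dKO-E (20.2% of all genes), 1 rose and 2 fell in dKO-N (11.3% of all genes), and the direct comparison found 2 lower in dKO-E, Cyfip1 and Wasf1 (6.84% of all genes). In each comparison a larger share of the list passed than of all genes. The list's median absolute log2 fold change, 0.21 in dKO-E and 0.16 in dKO-N, was nevertheless below that of all genes in both. The kinase Ptk2b, which clustered protocadherins inhibit, fell in dKO-E (-1.47 ± 0.21, adjusted p = 1.78e-06) and in dKO-N (-0.88 ± 0.22, adjusted p = 0.0051). It averaged 11.7 ± 3.18 CPM in dKO-E, 16.1 ± 7.02 CPM in dKO-N and 33.6 ± 3.86 CPM in control (SD, n = 4 each). Of the WAVE subunits, Cyfip1 (-0.35 ± 0.11, adjusted p = 0.028) and Nckap1 (-0.25 ± 0.09, adjusted p = 0.0296) fell in dKO-E, as did the kinase Taok2 (-0.36 ± 0.11, adjusted p = 0.0159). In dKO-N, Abi2 fell (-0.31 ± 0.09, adjusted p = 0.0159) and Wasf2 rose (0.48 ± 0.16, adjusted p = 0.0399).

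The large atypical cadherins fall outside the symbols of the family but are built of the same repeats. Of 23 listed, 11 were tested, and 1 rose and 4 fell in each deletion, where 20.2% of all genes passed in dKO-E and 11.3% in dKO-N. Their median absolute log2 fold change was 0.27 in dKO-E and 0.17 in dKO-N, where all genes had 0.24 in dKO-E and 0.20 in dKO-N. Celsr1, a planar polarity cadherin of progenitors, rose in dKO-E (0.92 ± 0.16, adjusted p = 2.66e-05) and in dKO-N (0.98 ± 0.16, adjusted p = 3.95e-05). Fat1, a giant protocadherin, fell in dKO-E (-1.09 ± 0.11, adjusted p = 7.07e-10) and in dKO-N (-1.17 ± 0.12, adjusted p = 1.37e-09). The synaptic calsyntenin Clstn2 fell too, in dKO-E (-1.04 ± 0.14, adjusted p = 4.18e-05) and in dKO-N (-0.57 ± 0.14, adjusted p = 0.0136). Celsr2 and Fat3 also fell in both deletions. Celsr2 had -0.47 in dKO-E (adjusted p = 0.00127) and -0.38 in dKO-N (adjusted p = 0.0228). Fat3 had -0.40 in dKO-E (adjusted p = 0.000988) and -0.46 in dKO-N (adjusted p = 0.000374).

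A further fixed list held 18 genes taken as regulators of the clustered protocadherin promoters, Atrx and Daxx among them, and all were tested. A smaller share of it passed than of all genes (20.2% in dKO-E and 11.3% in dKO-N). In dKO-E 2 rose, the insulator factor Ctcf (0.31 ± 0.10, adjusted p = 0.0271) and the cohesin subunit Rad21 (0.29 ± 0.11, adjusted p = 0.0437). In dKO-N 1 fell, the histone methyltransferase Setdb1 (-0.40 ± 0.13, adjusted p = 0.0316). The clustered genes themselves could not be followed in these counts.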

How the data were processed

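The deposited files hold raw counts per gene, 1 file per library, as whole numbers without normalization by the authors. The tools were STAR, UMI-tools and HTSeq on mm10, per the submitters' processing notes; the sources used here give no versions, annotation or counting options. Of 51912 gene identifiers, 51719 (99.6%) matched GENCODE M21. Lines that name no gene were left out, among which unassigned reads took 6.65% to 8.94% of a library, ambiguous reads 2.00% to 2.20% and multiply mapped reads 2.30% to 4.16%. The other assays the series names were not analysed here.

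Libraries were grouped by their labels. After TMM scaling and filterByExpr (minimum count 10, 11076 genes kept), the edgeR quasi-likelihood test (glmQLFit robust, glmQLFTest) was run in 1 fit of 12 libraries with 9 residual degrees of freedom. Adjusted p-values are Benjamini-Hochberg over all genes tested, two-sided, with a threshold of 0.05. CPM are TMM-scaled, and values after ± beside a log2 fold change are SE. Versions were edgeR 4.0.16, DESeq2 1.42.0 and limma 3.58.1 under R 4.3.3, and pandas 2.3.3 and matplotlib 3.10.9 under Python 3.11.15; the scripts were tested on simulated data. Floors of 3 counts cover counting error only.

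Whether the libraries of a group stem from separate animals is not in the labels, so each p-value reflects the spread among these libraries alone, which may be technical. Every pair of a group differed beyond sampling noise (chi-square over its degrees of freedom, 1.59 to 5.94). Every family gene that passed in a comparison is named, and of the others the 2 most abundant of a class. Of other lists, up to 4 changed genes with the largest fold change are named per comparison. Genes and lists were chosen with earlier results of these data known. Promoters are RefSeq's (GRCm38.p6). Alternatives were library totals, DESeq2's size factors, DESeq2, no filter, 2-group fits, a replicate block, leaving out each library, control 1 and 3, or dKO-E 3 and 4, and, added after seeing the data, thinning each library to 722080 counts.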

Additional observations from a re-analysis of the deposited data

Results flagged for a closer look

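In 3 of the 78 groups of 4 values (26 genes in 3 groups), 1 library stood apart from the others of its group by Dixon's criterion, which chance meets in about 1 group in 20. In dKO-E 1, Cdh2 had 1097 CPM, where the other dKO-E libraries had 1318 to 1356 CPM, and Cdh6 had 40.5 CPM, where the others had 61.0 to 63.7 CPM. That library also carried the meningeal markers described above. Without it the log2 fold change of Cdh2 in dKO-E against control was 0.10 (adjusted p = 0.542). In dKO-E 4, Cdh24 had 5.59 CPM, where the other dKO-E libraries had 15.7 to 16.02 CPM.

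The deletions differed from each other by the direct test of dKO-E against dKO-N in 6 genes, of the 26 tested, where 6.84% of all genes passed. The log2 difference was 0.51 for Pcdh19, 0.81 for Pcdh17, 0.53 for Cdh4, -0.42 for Cdh11, -0.67 for Cdh6 and 1.19 for Cdh22. All 4 dKO-E libraries lay on 1 side of all 4 dKO-N libraries in each of these genes, as in 10.2% of all genes. The margin was narrow for Cdh6, with at most 63.7 CPM in dKO-E and at least 63.9 CPM in dKO-N. For Cdh22, dKO-N 1 and dKO-N 3 held fewer than 3 counts each. The calls of Pcdh17 and Cdh4 held in every fit that left out 1 library, and only that of Pcdh17 held under every alternative.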

How the results depend on the processing

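The family's 33 calls (14 in dKO-E against control, 13 in dKO-N against control, 6 in dKO-E against dKO-N) were repeated under 21 alternatives. None turned round, 20 held under all 21, and 25 held in all 12 fits that left out 1 library. Leaving out 1 library gave 13 to 16 family genes in dKO-E against control, 10 to 13 in dKO-N against control and 2 to 7 in dKO-E against dKO-N, and 1699 to 2753, 972 to 1298 and 300 to 1036 of all genes. In dKO-E against dKO-N, 3 family genes passed without dKO-E 3 and 4 and 3 after thinning. Without dKO-E 3 and 4, 7 calls were lost: Pcdh10, Pcdh17 and Cdh8 in dKO-E against control, and Pcdh19, Cdh4, Cdh11 and Cdh22 between the deletions. Over all genes, 1215 passed in dKO-E against control without control 1 and 3, 1225 without dKO-E 3 and 4 and 1234 after thinning. In dKO-N against control, 756 passed without control 1 and 3 and 751 after thinning. In dKO-E against dKO-N, 199 passed without dKO-E 3 and 4, 488 in the 2-group fit, 500 with the replicate block and 307 after thinning. Fewer libraries or counts enter these fits, other than the block, and the cause of the lower numbers was not tested. Some fits with fewer libraries gave more. In dKO-E against control, 2753 genes passed without dKO-N 4 and 2879 in the 2-group fit, where 2238 passed with all 12 libraries. In dKO-E against dKO-N, 1036 passed without dKO-N 2, where 758 passed with all 12. Library totals shifted the median log2 fold change of all genes to 0.14 in dKO-E, with 1988 genes higher and 701 lower there, against 1120 and 1118 with TMM, and 1 family call was lost, Pcdh17. Libraries with the same replicate number did not deviate together (correlations -0.12 to 0.013, and 0 of 12 libraries closest to their own number), so the numbers were not taken as pairs; with the replicate block 14, 12 and 5 family genes passed and 1974, 1065 and 500 genes in all. Depth limits what the counts show of genes under the filter, which were tested only in the fit without it.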
